A study of Drosophila melanogaster with 10 samples.

Results

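The genes ab, mamo and Eip93F encode transcription factors that belong with the factors known to mark developmental time in Drosophila. They are the 3 rows of the deposited table whose gene symbol equals one of these names, of 13041 genes in all. The rule reads names and no measured value, but the names were picked with earlier results of these data known. The study sequenced RNA of wing imaginal discs, epithelial sacs of the larva from which the wing and the notum of the adult develop. The larvae were yw, a strain of Drosophila melanogaster. The 10 libraries came from 5 times in the third larval instar, 6, 15, 25, 35 and 48 h after the molt that starts the instar, with n = 2 libraries (A and B) at each time, and the 48 h larvae were wandering. All groups share the yw genotype and no treatment is given. The labels do not give the sex of the larvae, the number of discs pooled or whether A and B were separate collections, so p-values measure only the spread between these libraries.

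Insect tissues pass from larval to adult programmes under ecdysone, the steroid hormone of molting, and a small set of transcription factors carries that passage. Several of them, including Abrupt (from ab), Mamo, Chinmo and Broad (from br), share a layout: a BTB domain, which lets proteins pair, joined to zinc fingers, which bind DNA. Abrupt is needed for a longitudinal vein of the wing and for the dendrite shape of sensory neurons, and in the ovary it binds Taiman, a co-activator of the ecdysone receptor. Mamo was named for its need in female meiosis and acts with Chinmo in setting the identity of mushroom body neurons in the brain. Eip93F encodes E93, an ecdysone-induced factor with a helix-turn-helix domain of the Pipsqueak type. It specifies adult fates, changes chromatin accessibility in the pupal wing and takes part in the death of larval salivary glands.

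The 3 genes lie on 3 chromosomes, and all are protein-coding genes with long introns. In the Ensembl BDGP6.54 annotation (dm6 coordinates), ab (FBgn0264442) spans 2L 11210678 to 11261080 on the plus strand, with 5 transcripts from 3 start sites. mamo (FBgn0267033) spans X 13846116 to 13990527 on the minus strand, with 7 transcripts from 5 start sites. Eip93F (FBgn0264490) spans 3R 21949114 to 22014539 on the plus strand, with 3 transcripts from 2 start sites. Exons cover 14.4% of the ab span, 20.4% of the mamo span and 19.4% of the Eip93F span. The annotated proteins have 894 to 904 codons for ab, 799 to 1553 for mamo and 1165 to 1188 for Eip93F. The table has 1 value per gene, so it cannot tell these transcripts apart.

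The values are signal, that is, reads per gene after division by a size factor for each library, as the authors deposited them, and whole reads could be recovered from them. The libraries held 16814685 to 38003104 recovered reads. ab had 1824 to 6612 reads in a library and mamo 790 to 2290, whereas Eip93F had 2 to 25. All 9 genes that define the wing disc here (vg, nub, ap, wg, en, hh, sd, Dll and pnr) had reads in every library and together took 0.0606% to 0.211% of the reads. Markers of attached or carried-over tissue were also present, as described below. The libraries 15 h A and 15 h B stood apart from each other: 2754 of the 10453 genes tested differed more than 2-fold between them, against 742 to 1473 at the other times. Every test below draws on 1 spread per gene over all 10 libraries, so this gap enters all of them.

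The level of ab was high through 25 h and lowest at 35 h. Its signal was 4259 and 4880 in 6 h A and B, 4241 and 7107 in the 15 h pair, 5397 and 4961 in the 25 h pair, 2466 and 2353 in the 35 h pair, and 3169 and 3246 in the 48 h pair. All 4 libraries of 35 and 48 h lay below all 6 libraries of the earlier times, an order that depends on the scaling: per 1000000 gene reads (RPM), 15 h A (118) lay below 48 h A and B (140 and 143). The A and B values were close at 35 and 48 h and far apart at 15 h. In mean signal ± SD (n = 2 each), the 6 h pair of ab had 4570 ± 439, the 15 h pair 5674 ± 2026, the 25 h pair 5179 ± 308, the 35 h pair 2409 ± 79.7 and the 48 h pair 3208 ± 54.1.

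Between 25 and 35 h ab fell, with 2466 and 2353 at 35 h against 5397 and 4961 at 25 h. The log2 change on the log2(signal + 1) scale was -1.10 (standard error (SE) 0.22, 95% interval -1.62 to -0.58; limma, two-sided, Benjamini-Hochberg adjusted p 0.0455, threshold 0.05). At this step 3.94% of all genes tested passed. The adjusted p lay close to the threshold. It was 0.0874 to 0.273 when any single library of 6, 25, 35 or 48 h was left out, and 0.0035 or 0.0036 without 15 h A or 15 h B, while the change stayed between -1.16 and -1.04. It was 0.0534 to 0.157 with quantile or TMM scaling, without the filter, with a replicate block or by edgeR. In a bulk sample, fewer cells that express a gene and less RNA per cell cannot be told apart.

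The same comparison ran alongside a large difference in fat body RNA. The 8 fat body markers, storage proteins and lipoproteins of the larva, held 0.461% of reads in 35 h A and 0.598% in 35 h B, against 15.8% in 25 h A and 8.73% in 25 h B. The 7 salivary gland markers took 0.0076% and 0.0363% at 35 h, against 0.0023% and 0.0096% at 25 h. All 9 disc-defining genes were higher in both 35 h libraries. Together they took 0.191% and 0.202% at 35 h, against 0.0956% and 0.128% at 25 h. The 2 measured muscle markers, Act57B and Tm2, were lower in both 35 h libraries. Of 7 blood cell markers, 5 were lower in both 35 h libraries and 2 overlapped. How many of all genes separated these pairs of libraries in the same way is not given here, so these counts have no background. The part of these marker differences in the fall of ab was not tested. Libraries were also scaled to equal total reads, a setting chosen after seeing the data because of this fat body share. The change of ab was then -0.70 (adjusted p 0.217, limma). Under that setting the median change of all genes at this step was 0.39, against -0.01 in the deposited scaling.

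The other steps of ab did not pass. At 15 h against 6 h the log2 change was 0.27 (95% interval -0.25 to 0.79, adjusted p 0.515, limma), where 4.22% of genes passed. At 25 h against 15 h it was -0.09 (-0.61 to 0.44, adjusted p 0.851), where 0.134% passed. From 35 h on, ab was higher in both 48 h libraries than in both 35 h libraries, with a change of 0.41 (-0.11 to 0.93, adjusted p 0.543) at a step where 0.392% of genes passed. With 15 h A, 15 h B or both left out, this difference passed (adjusted p 0.0275 to 0.0291).

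Over the whole span ab was lower at 48 h, 3169 and 3246, than at 6 h, 4259 and 4880, without overlap. The log2 change of -0.51 did not pass (SE 0.22, 95% interval -1.03 to 0.01, adjusted p 0.0927, limma), in a comparison where 49.1% of genes passed. It passed when 15 h A, 15 h B or both were left out (adjusted p 0.0014 to 0.0015), and under equal total reads it was -0.20 (adjusted p 0.641). The order of the mean levels was 15 h, 25 h, 6 h, 48 h and 35 h, from high to low, and no pair of neighbours in that order passed. Pairs farther apart did: 35 h against 15 h (-1.19, adjusted p 0.0220; 15.7% of genes passed), 35 h against 6 h (-0.92, 0.0163; 45.6%) and 48 h against 15 h (-0.78, 0.0423; 25.7%). Each of these calls was lost without some single libraries (highest adjusted p 0.143, 0.0863 and 0.166), and all were lost under equal total reads (0.127, 0.178 and 0.422) and with quantile normalization (0.0703, 0.0595 and 0.156). 48 h against 25 h (-0.69, adjusted p 0.105; 10.4% passed), which passed without either 15 h library (0.00178 and 0.00198), and 25 h against 6 h (0.18, 0.570; 16.9%) did not pass.

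**Figure D1:**
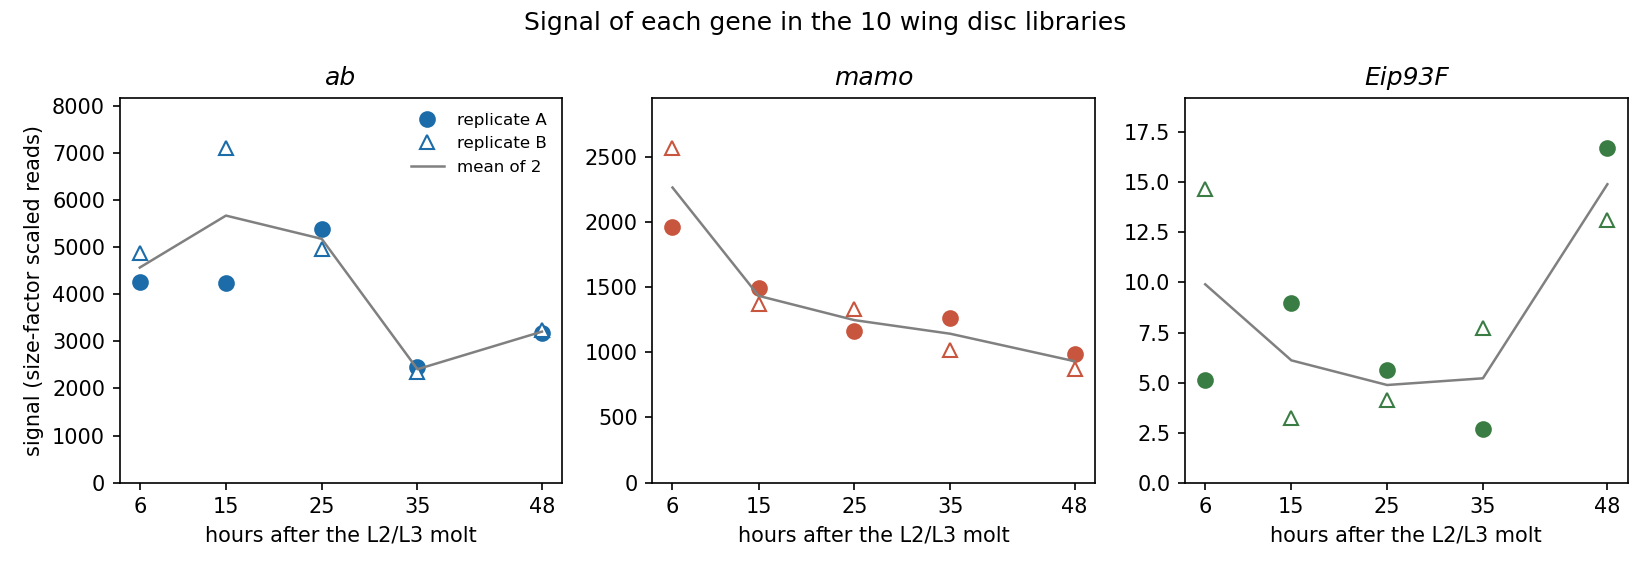
Signal of ab, mamo and Eip93F (size-factor scaled reads, each panel with its own axis from 0) against hours after the molt; filled circles are replicate A, open triangles replicate B and the line joins the means of n = 2. The 4 values of ab at 35 and 48 h lie below the others, mamo is highest at 6 h, and Eip93F stays below 17.

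In signal, the 2 libraries of 15 h disagreed on ab more than on mamo. ab had 7107 in 15 h B and 4241 in 15 h A, a log2 difference of A from B of -0.74, against at most 0.20 in size at the other times. mamo had 1370 in 15 h B and 1494 in 15 h A (log2 difference 0.12). Its order turned in RPM, with 52.5 in 15 h B and 41.5 in 15 h A. The order of ab was the same in RPM as in signal, with 272 in 15 h B and 118 in 15 h A. The 8 gut markers measured, mostly trypsins, took 0.0217% of the reads of 15 h B and 0.955% of those of 15 h A, and the 9 disc-defining genes took 0.123% and 0.0606%. The part of this difference in the ab values was not tested.

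mamo declined over the instar. Its signal was 1961 and 2565 in 6 h A and B, 1494 and 1370 in the 15 h pair, 1164 and 1328 in the 25 h pair, 1264 and 1019 in the 35 h pair, and 988 and 873 in the 48 h pair. Both libraries of 6 h were above all others, and both of 48 h were below all others in signal but not in RPM, where 25 h A (34.9) lay below 48 h A and B (43.7 and 38.6). In signal, 15, 25 and 35 h were close, with 25 and 35 h overlapping. The mean of the 6 h pair was 2263 ± 427, that of the 15 h pair 1432 ± 87.2, that of the 25 h pair 1246 ± 116, that of the 35 h pair 1142 ± 173 and that of the 48 h pair 931 ± 81.0 (SD, n = 2 each).

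At 48 h mamo was lower than at 6 h, with 988 and 873 at 48 h against 1961 and 2565 at 6 h. The log2 change was -1.27 (SE 0.17, 95% interval -1.68 to -0.87, adjusted p 0.00173, limma). Of all genes tested, 26.8% passed as lower in this comparison, and 25.5% had a more negative change than mamo. The call held with each single library left out (changes -1.46 to -1.08, highest adjusted p 0.0187) and under each of the 13 other settings tried (changes -1.27 to -0.96, highest adjusted p 0.0161). A straight line through all 10 libraries had a slope of -0.27 log2 units per 10 h (SE 0.04, adjusted p 0.00109; 51.7% of genes passed). Under equal total reads the slope was -0.17 (adjusted p 0.0544).

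No single step carried the decline of mamo past the threshold. The step with the largest change was 15 h against 6 h, 1494 and 1370 at 15 h against 1961 and 2565 at 6 h, with a log2 change of -0.65 (95% interval -1.05 to -0.24, adjusted p 0.0866, limma). The later steps were -0.20 (25 h against 15 h, adjusted p 0.571), -0.13 (35 h against 25 h, 0.729) and -0.29 (48 h against 35 h, 0.594). Ordered by level, the times ran 6, 15, 25, 35 and 48 h from high to low, so none of the 4 neighbouring pairs passed. Under equal total reads the mean log2 level at 35 h was above that at 25 h by 0.27 (adjusted p 0.426), so the order of those times depends on the scaling. The median change of all genes at 35 h against 25 h was 0.39 under equal total reads, against -0.01 in the deposited scaling.

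Wider comparisons of mamo passed, where 16.9% (25 h against 6 h), 45.6% (35 h against 6 h) and 25.7% (48 h against 15 h) of all genes passed. 25 h against 6 h gave -0.85 (adjusted p 0.0205, limma) and 35 h against 6 h gave -0.98 (0.00585). 48 h against 15 h gave -0.62 (0.0389), a call that did not hold when 15 h A or a single library of 25, 35 or 48 h was left out (highest adjusted p 0.196). That of 25 h against 6 h was lost without 6 h B, 25 h A or 25 h B (highest adjusted p 0.110), and all 3 were lost under equal total reads (adjusted p 0.0636, 0.0613 and 0.537). 35 h against 15 h (-0.33, adjusted p 0.183) and 48 h against 25 h (-0.42, 0.196) did not pass.

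**Figure D2:**
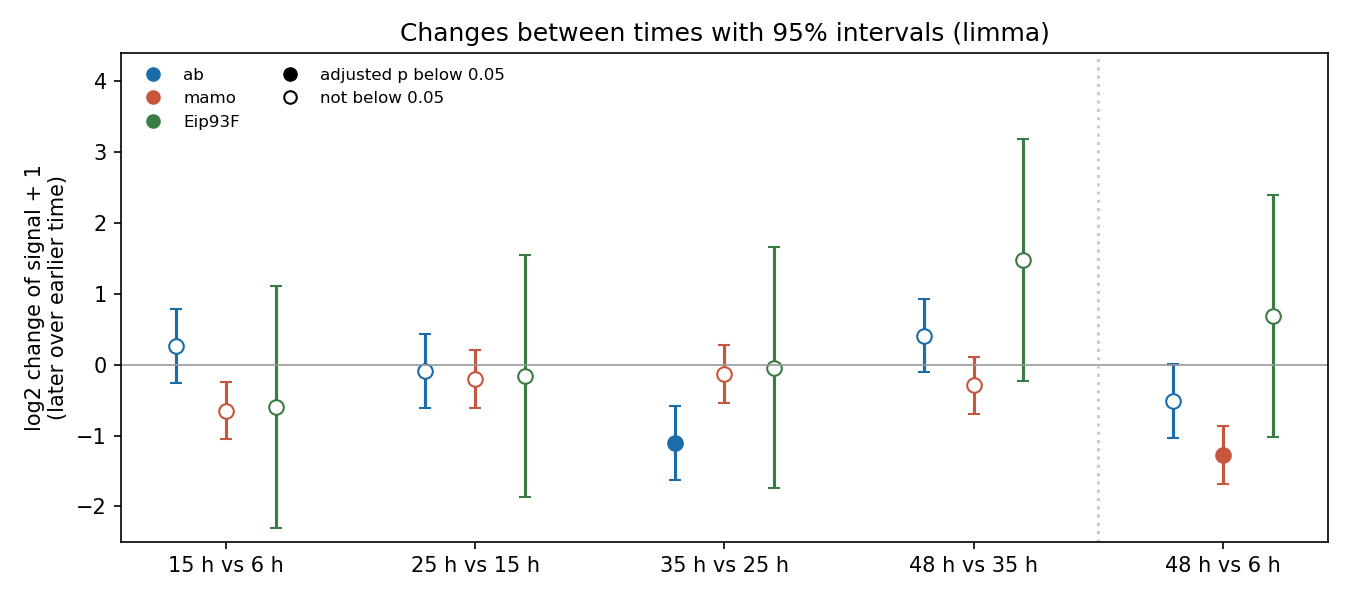
Log2 change of signal + 1 (later over earlier time) of ab, mamo and Eip93F for the 4 steps and, right of the dotted line, for 48 h against 6 h. Points are limma estimates from n = 2 libraries per time, bars are 95% intervals and filled points have an adjusted p below 0.05. Only ab at 35 h against 25 h (-1.10) and mamo at 48 h against 6 h (-1.27) are filled, and the intervals of Eip93F are the widest.

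The summed markers of muscle, blood cells, gut and fat body were lower in both libraries of 48 h than in both of 6 h, the span over which mamo fell. The 2 measured muscle markers, Act57B and Tm2 of the 10 listed, held 0.0244% of reads in 48 h A and 0.0174% in 48 h B, against 0.571% in 6 h A and 0.709% in 6 h B. The 7 blood cell markers took 0.0501% and 0.0624% at 48 h, against 0.311% and 0.405% at 6 h. The fat body markers took 0.201% and 0.491% at 48 h, against 0.963% and 1.77% at 6 h, although 3 of them (Fbp1, Fbp2 and Lsp2) were higher in both 48 h libraries. The gut markers took 0.000703% and 0.00055% at 48 h, against 0.458% and 0.168% at 6 h, with gammaTry at 0 in 48 h B. The 6 neuronal markers took 0.00408% and 0.00411% at 48 h, against 0.0064% and 0.00431% at 6 h. The sum was mostly elav, with 819 and 794 signal at 48 h against 620 and 658 at 6 h, while the other 5 (Syn, nSyb, brp, para and Syt1) were lower in both 48 h libraries, Syn with 3.34 and 0.596 at 48 h against 217 and 37.4 at 6 h. The 4 tracheal markers took 0.0227% and 0.0200% at 48 h, against 0.0224% and 0.0225% at 6 h. The disc-defining genes took 0.201% and 0.211% at 48 h, against 0.0835% and 0.0733% at 6 h. Of 4 adult muscle precursor markers, zfh1 was measured, at 513 and 397 signal at 48 h and 502 and 621 at 6 h. As above, no count over all genes is given for markers higher or lower in both libraries. The part of these tissues in the fall of mamo was not tested.

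**Figure D3:**
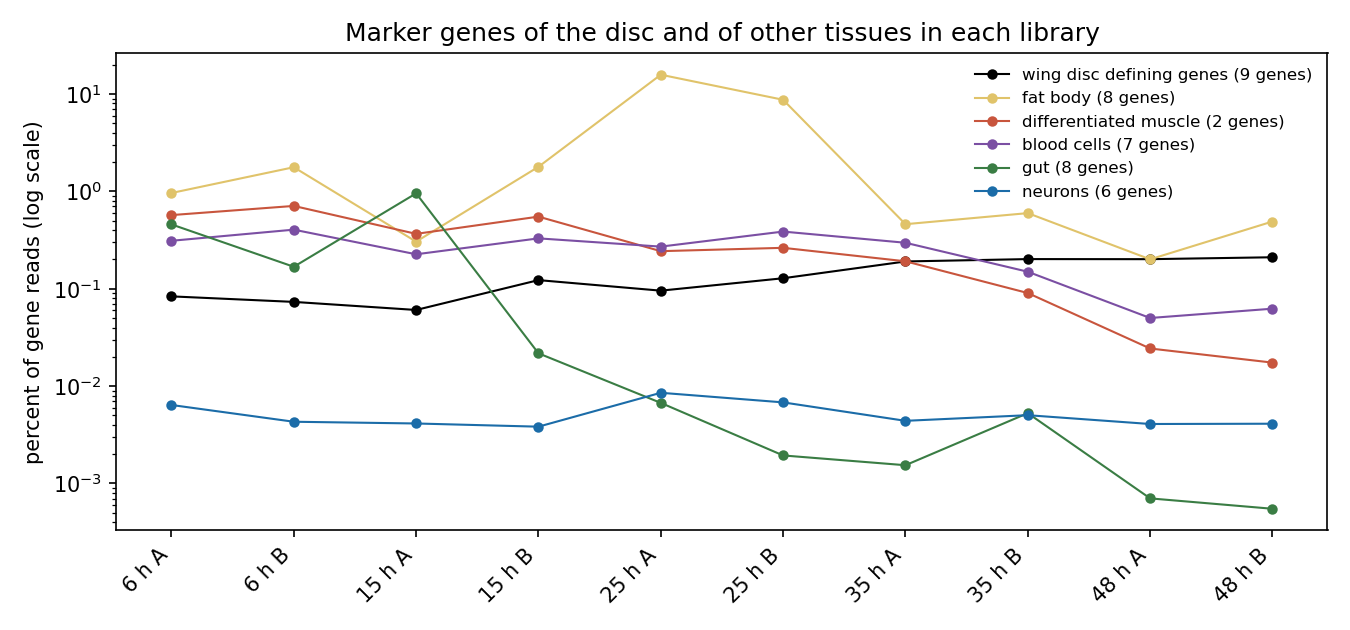
Percent of gene reads (log scale) taken by the disc-defining genes and by markers of 5 other tissues in each of the 10 libraries, joined by lines. Fat body markers peak at 25 h (15.8% and 8.73%), gut markers at 15 h A (0.955%), muscle and blood cell markers are lowest at 48 h, and disc-defining genes reach 0.211%.

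Eip93F was near the limit of detection at all times. Reads of Eip93F numbered 6 and 11 in 6 h A and B, 7 and 3 in the 15 h pair, 4 and 4 in the 25 h pair, 2 and 6 in the 35 h pair, and 25 and 22 in the 48 h pair. Its signal was 5.14 and 14.7 in the 6 h pair, 8.99 and 3.22 in the 15 h pair, 5.62 and 4.14 in the 25 h pair, 2.68 and 7.74 in the 35 h pair, and 16.7 and 13.1 in the 48 h pair. The highest values were thus at 48 h and in 6 h B, whose signal lay between those of the 2 libraries of 48 h. It passed the filter on low signal (at least 10 in at least 2 libraries) only through those 3 libraries.

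In RPM, with both libraries of a time summed, Eip93F had 0.320 RPM in the 6 h pair, 0.191 in the 15 h pair, 0.163 in the 25 h pair, 0.236 in the 35 h pair and 0.654 in the 48 h pair. The exact 95% Poisson interval was 0.481 to 0.870 at 48 h. It was 0.102 to 0.465 at 35 h, 0.0705 to 0.322 at 25 h and 0.0916 to 0.351 at 15 h, all below that of 48 h, whereas the interval at 6 h, 0.186 to 0.512, overlapped it. These intervals cover counting error only, and reads without molecular identifiers are not independent molecules.

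Against the spread between libraries, no difference in Eip93F passed. The test over all 5 times had an adjusted p of 0.354 (limma; 38.4% of genes passed), whereas ab had 0.0206 and mamo 0.0104, both lost under equal total reads (0.318 and 0.0617). At 48 h against 35 h the log2 change was 1.48 (SE 0.72, 95% interval -0.23 to 3.18, adjusted p 0.499), and at 48 h against 6 h it was 0.69 (-1.02 to 2.39, adjusted p 0.448). The intervals include 0 as well as rises of several fold. At 48 h against 6 h the value was 2.75 under quantile normalization, where it passed (adjusted p 0.0197), and 0.36 with a pseudocount of 10. The 7 markers of the salivary gland, a tissue in which E93 acts, took 0.0014% and 0.00153% of reads at 48 h, against 0.000226% and 0.000203% at 6 h. Their highest share was 0.0363%, in 35 h B, where Eip93F had 6 reads. The part of this tissue in the Eip93F reads was not tested.

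**Figure D4:**
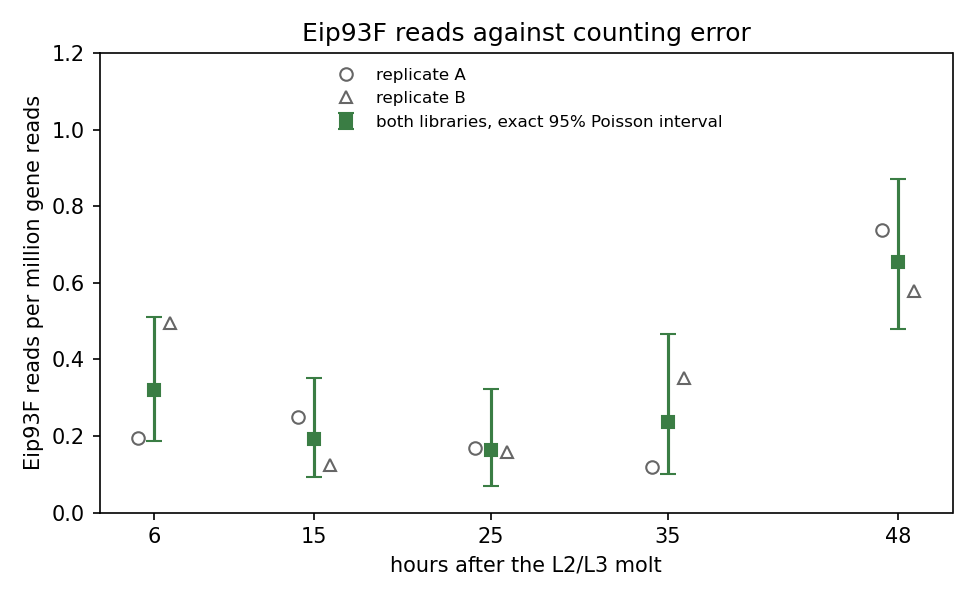
Eip93F reads per 1000000 gene reads (RPM) against hours after the molt. Squares are both libraries of a time summed, with exact 95% Poisson intervals (counting error only); open symbols are the single libraries. The 48 h value of 0.654 has an interval above those of 15, 25 and 35 h but overlapping that of 6 h.

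Set side by side per length, the levels of the 3 genes were far apart. Per kilobase of annotated exon, signal was 323 to 976 for ab, 29.6 to 87.0 for mamo and 0.212 to 1.32 for Eip93F over the 10 libraries. Of the genes with a read in a library, 57.8% to 83.9% had a lower signal per kilobase than ab, 30.8% to 37.5% than mamo and 0.194% to 8.33% than Eip93F. The length of mamo is uncertain, since the union of its exons is 29476 bases and its transcripts run from 4535 to 15683. ab was above mamo per kilobase in every library, by 7.70 to 21.0 times on the exon union and by 1.67 to 4.55 times with the longest ab and the shortest mamo transcript.

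Within a library, ratios between genes do not depend on the scaling of libraries, but they do depend on the gene lengths used, here the union of exons. Among the 4 BTB zinc finger factors ab, mamo, chinmo and br, ab made up 24.5% and 26.7% of the summed signal per kilobase at 48 h, against 36.8% and 38.9% at 6 h. Its lowest shares were 20.1% and 20.4%, at 35 h. mamo made up 1.89% and 1.78% at 48 h, against 4.18% and 5.05% at 6 h. The level of br per kilobase was 2.77 and 2.46 times that of ab at 48 h, against 0.274 and 0.317 times at 6 h. The level of chinmo was 0.230 and 0.213 times that of ab at 48 h, against 1.33 and 1.12 times at 6 h. ab was thus above chinmo at 48 h and below it at 6 h on these lengths. The order did not change only once. At 25 h chinmo was at 0.803 and 0.820 times ab, and at 35 h at 1.21 and 1.13 times ab. With the longest transcript of ab and the exon unions of the others, a length chosen after seeing the data, chinmo was at 0.163 and 0.151 times ab at 48 h and at 0.944 and 0.797 times ab at 6 h, so the order at 6 h turned. At 35 h the order turned as well, with chinmo at 0.858 and 0.799 times ab. The level of chinmo was 2.99 and 3.20 times that of mamo at 48 h, against 11.7 and 8.66 times at 6 h, so chinmo was above mamo on these lengths. With the shortest mamo transcript alone exchanged, chinmo was at 0.460 and 0.493 times mamo at 48 h. At 6 h it was at 1.80 and 1.33 times mamo. The share of mamo was then 11.1% and 10.5% at 48 h and 22.1% and 25.7% at 6 h. With the shortest transcript of each gene, br was at 9.71 and 8.63 times ab at 48 h. At 6 h it was at 0.963 and 1.11 times ab, so the order of br and ab at 6 h was not settled. On those shortest transcripts ab made up 8.76% and 9.74% at 48 h, against 21.0% and 21.7% at 6 h.

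**Figure D5:**
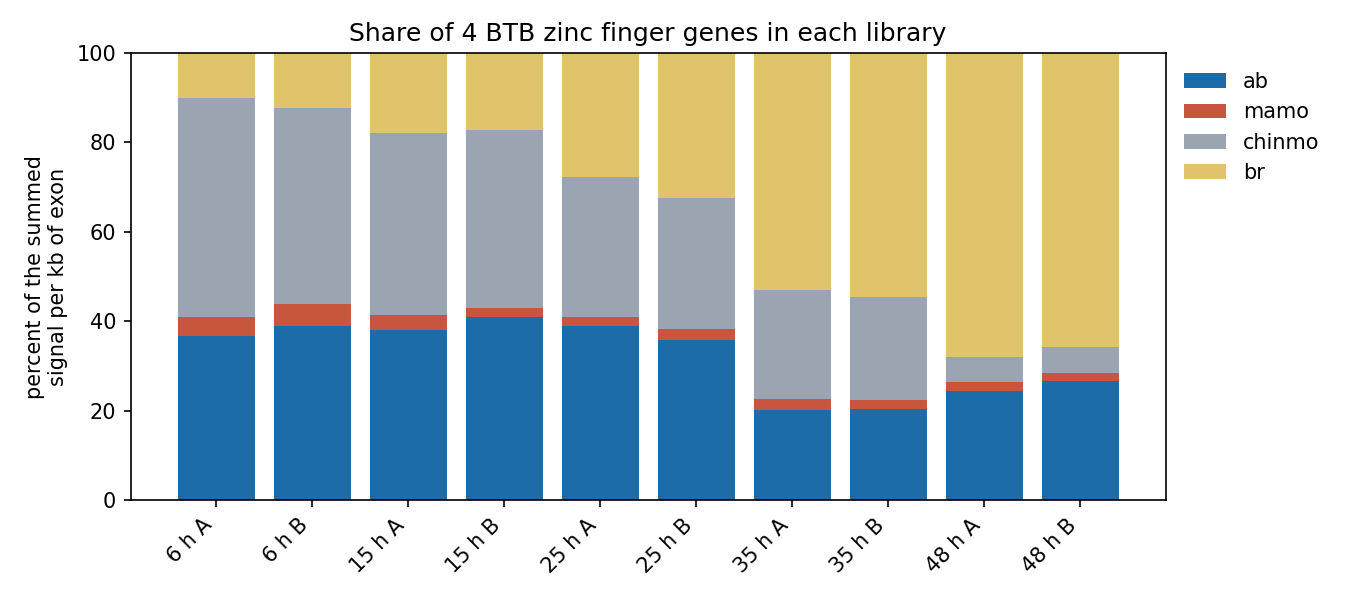
Share (percent) of the summed signal per kilobase of exon of ab, mamo, chinmo and br in each of the 10 libraries, as stacked bars. ab takes 35.9% to 41.0% through 25 h and 20.1% to 26.7% at 35 and 48 h. With the shortest transcript of each gene as its length, ab would take 17.0% to 22.8% and 7.76% to 9.74%. mamo stays at or below 5.05%, but would take up to 25.7% with its own shortest transcript as its length.

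The factors and pathways around these genes give the setting at 48 h against 6 h, where 22.3% of all genes passed as higher and 26.8% as lower. Of 5 other temporal factors tested, 3 were higher (br, Syp and Kr-h1) and 2 lower (chinmo and Imp), so all 5 passed. Kr-h1, a zinc finger factor of the juvenile hormone response that represses the E93 gene in the beetle Tribolium, had 1517 and 1537 signal at 48 h and 432 and 406 at 6 h (log2 1.86, adjusted p 0.00125, limma). Of 6 other BTB zinc finger genes tested, 3 were higher (br, ttk and lola) and 1 lower (chinmo). ttk, a repressor of neural fate, changed by 1.41 (adjusted p 0.000678). Of 5 other Pipsqueak-domain genes tested, 4 were higher (bab1, bab2, danr and psq) and 0 lower, with a median of 0.94 against -0.10 over all genes; of these bab2, a factor of leg and abdomen patterning, changed by 2.30 (adjusted p 0.00337). The calls of lola, bab1, danr and psq were each lost without some single libraries.

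Of 14 genes of the ecdysone and juvenile hormone circuit tested, 8 were higher and 3 lower at 48 h against 6 h. In this comparison 22.3% of all genes tested passed as higher and 26.8% as lower. The signal of 48 h A and B was far apart for Hr4 (2910 and 300), Blimp-1 (3474 and 671) and Eip78C (1931 and 913). It was close for usp (1678 and 1712). usp, the partner of the ecdysone receptor, changed by 0.53 (adjusted p 0.0025, limma). gce, a juvenile hormone receptor, had 22.7 and 38.1 signal at 48 h, against 336 and 343 at 6 h (log2 -3.48, adjusted p 0.00368), while its paralog Met did not pass (0.22, 0.201). tai, which encodes the Taiman partner of Abrupt, did not pass (-0.04, adjusted p 0.726). At the last step, 48 h against 35 h, Eip75B and Eip78C, ecdysone-induced nuclear receptors, were higher and ftz-f1 and Hr38, nuclear receptors, were lower, where 0.392% of all genes passed. These 4 calls fell to 2 under equal total reads and by edgeR, to 0 under quantile normalization and with a replicate block, and to 0 or 1 without any single library of 6, 25, 35 or 48 h.

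Of 15 genes of wing vein patterning, in which ab acts, 14 were higher at 48 h than at 6 h and 0 lower. Their median was 1.40, against -0.10 over all genes, of which 22.3% passed as higher and 26.8% as lower. The disc-defining genes were also higher, as given above, and their part in these calls was not tested. Of the 14 calls, those of vn and bi were lost in 10 settings each. The 14 included kni (2.28, adjusted p 0.000216) and knrl (1.97, 0.000269), which place a vein, and brk (2.29, 0.000988), a repressor that acts upstream of ab in the vein it serves. rho, which starts vein signalling, did not pass (0.65, adjusted p 0.200). ab itself was at -0.51 in this comparison, as given above. Whether ab differs from these genes was not tested.

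The 5 genes whose profile over the 10 libraries was closest to that of each member are given as a description. Closeness is the root mean square difference of mean-centred log2(signal + 1), over genes with a mean signal of at least 100; the points share libraries and scaling. For ab they were PRAS40, kibra, verm, RpL23A and nahoda, at 0.22 to 0.27, compared with 0.61 for the median gene; PRAS40 acts in insulin and TOR signalling, kibra in the Hippo pathway and verm in chitin modification. For mamo they were CG1265, eIF3j, CG4619, Mtap and CG13630, at 0.12 to 0.16, compared with 0.60 for the median gene; eIF3j encodes a subunit of a translation initiation factor. For Eip93F they were CG6287, E23, CG15822, Oatp30B and CG3097, at 0.40 to 0.55, compared with 0.83 for the median gene. A flat profile would lie at 0.48 from ab, 0.45 from mamo and 0.76 from Eip93F. With 2 to 25 reads in a library, the profile of Eip93F holds much counting error, so its closest genes are uncertain. E23, an ecdysone-inducible transporter gene, had 354 and 170 signal at 48 h and 52.7 to 114 at the earlier times. At 48 h against 6 h E23 changed by 1.33 and did not pass (adjusted p 0.0613, limma). The log2 changes there were 0.38 for CG6287, 0.07 for CG15822, -0.01 for Oatp30B and 0.80 for CG3097. When the means of the 5 times were used in place of the libraries, 0 of the 5 stayed for ab, 2 for mamo and 2 for Eip93F.

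Overlap of exons with neighbouring genes was small. cmet, on the opposite strand, shares 55 exon bases with ab, 0.756% of the exon bases of ab, and had 4839 to 8352 signal. CG11068 lies within the mamo span on the opposite strand, shares no exon bases with it and had 2.38 to 16.0 signal. No gene of the annotation overlaps Eip93F.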

How the data were processed

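The deposited table holds signal: the authors divided gene read counts by 1 size factor per library. Per the submitters' processing notes, STAR 2.7.10a and featureCounts were used with dm6 and BDGP6. The normalization tool and the strand setting are not given in the sources used here. The deposited counts are named as filtered, but the rule of that gene filter is not given. The labels name polyA RNA, while their protocol describes stranded total RNA libraries depleted of ribosomal RNA. Dividing each library by its smallest value above 0 gave whole reads within 0.001 for 100% of values. Symbols missing from the table came from the gene name table, and lengths and coordinates from Ensembl BDGP6.54.

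The test covered the 10453 genes that reached a signal of 10 in 2 or more libraries (2588 did not), by limma 3.58.1 in R 4.3.3 on log2(signal + 1), with an intensity trend, 1 mean per time, 5 residual degrees of freedom, two-sided, Benjamini-Hochberg over all genes tested of each comparison. All 10 pairs of times, an F test over the 5 times and a straight line in hours were fitted. The added 1 understates changes of low signal. Alternatives were quantile, TMM and equal-total scaling, other pseudocounts (0.1, 10) and filters (none, 50), array weights, fewer libraries, a replicate block, and edgeR 4.0.16 and DESeq2 1.42.0 on the recovered reads. The edgeR test called 3831 genes over the 5 times (limma 4014) and 4970 at 48 h against 6 h (limma 5130). Named genes are the 3 members, genes of the listed pathways, the 5 closest profiles and overlapping genes; members and lists were chosen with earlier results of these data known.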

Additional observations from a re-analysis of the deposited data

How the results depend on the processing

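Each result of ab, mamo and Eip93F was recomputed under 20 to 23 settings, of which 10 left out 1 library each. The call of mamo at 48 h against 6 h held in all 23. With equal total reads, a setting added after seeing the data, the adjusted p over all times was 0.318 for ab and 0.0617 for mamo, the change at 35 h against 25 h was -0.70 for ab, and the slope of mamo was -0.17; the values of mamo at 35 h turned to 0.27 against 25 h and 0.13 against 15 h, and those of Eip93F to 0.29 and 0.20. With quantile normalization the adjusted p over all times was 0.0896 for ab, whose changes were -1.02 (35 h against 25 h) and 0.031 (25 h against 15 h); Eip93F stood at 2.75 (48 h against 6 h) and 0.61 (slope per 10 h), both past the threshold, and at 0.35, 0.71, 0.27, 0.62 and 0.98 (15 h against 6 h, 35 h against 25 h, 25 h against 6 h, 35 h against 15 h, 35 h against 6 h). The ab change at 35 h against 25 h missed the threshold with TMM (-1.05), with edgeR (-1.05), without a filter (-1.10) and with a replicate block (-1.10, adjusted p 0.0641). edgeR gave 0.0509 for ab over all times. Array weights, a fit of only the times compared and a fit without 15 h brought ab past the threshold at 48 h against 35 h (0.41 in each), 48 h against 6 h (-0.51 in each) and 48 h against 25 h (-0.69 in each). Array weights and the fit of only the times compared ended those of ab at 35 h against 15 h (adjusted p 0.133 and 0.25) and 48 h against 15 h (0.0939 and 0.236; 0.0918 with TMM, 0.0727 with edgeR), and of mamo at 48 h against 15 h (0.389 and 0.153; 0.132 with quantile, 0.0581 with TMM, 0.0588 with edgeR). The slope of ab, -0.21 (adjusted p 0.0516), passed with a filter of 50 (-0.21), with array weights (-0.16) and with DESeq2 (-0.21), which also called mamo at 15 h against 6 h (-0.65). For Eip93F at 35 h against 25 h the sign turned with TMM (0.0078), a pseudocount of 10 (0.014), edgeR (0.17) and DESeq2 (0.13). The cause of these changes was not tested.

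With 1 library left out, the adjusted p over all times ranged from 0.000208 to 0.0904 for ab and from 0.00379 to 0.0525 for mamo. The changes of ab ranged from -0.10 to 0.64 (15 h against 6 h), -0.46 to 0.29 (25 h against 15 h), -1.16 to -1.04 (35 h against 25 h), 0.38 to 0.45 (48 h against 35 h) and -0.61 to -0.41 (48 h against 6 h). Without 15 h B, ab at 25 h against 15 h passed as higher (0.29, adjusted p 0.0487), and without 15 h A, ab at 15 h against 6 h did (0.64, adjusted p 0.00478). Those of mamo ranged from -0.84 to -0.45 (15 h against 6 h, past the threshold without 15 h A) and -0.29 to 0.024 (35 h against 25 h). Those of Eip93F ranged from -1.27 to 0.082, -0.78 to 0.46 and -0.66 to 0.58 over the first 3 steps and from -0.82 to 0.43 at 35 h against 15 h.

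Whether the letters A and B pair the libraries is not given. Differences of A from B correlated between times by -0.059 to 0.16, above 0.1 for 2 of 10 pairs of times. Correlations this weak cannot tell whether libraries of the same letter shared a collection. Besides ab at 35 h against 25 h, the replicate block ended the call of mamo at 48 h against 15 h (-0.62, adjusted p 0.0564) and changed no other call of the 3 genes; it gave 275, 4, 240 and 2 genes called at the 4 steps in place of 441, 14, 412 and 41, and 4996 at 48 h against 6 h in place of 5130. The counts at the 4 steps were 3818, 7, 2479 and 1045 without 15 h A, 1381, 1168, 1246 and 569 with DESeq2, and 0, 3, 151 and 10 with edgeR, which gave 2159 genes an unadjusted p below 0.05 at the first step. Over all settings they ranged from 0 to 3818, 4906, 2488 and 2152, and from 2499 to 7477 at 48 h against 6 h. Of 36 listed genes called at 48 h against 6 h, 28 kept the call under every setting they were tested in; the others were lola, bab1, danr, psq, EcR, Hr4, vn and bi. The median change of all genes at 48 h against 6 h was -0.10, with 0.33 under quantile normalization and 0.21 under equal total reads. At 35 h it was -0.01 against 25 h and -0.05 against 15 h, with 0.39 and 0.40 under equal total reads. Quantile normalization gave 0.18 and 0.31 there. For Eip93F no setting with a filter of 50 could be run, DESeq2 gave no adjusted p for 3 of 12 results, and its 2 to 25 reads in a library give wide counting intervals.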
